A study of Mus musculus with 12 samples.

Results

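The uterus of mice whose estrogen receptor alpha carries the EAAE change, described by the submitters as deficient in DNA binding, was compared with the wild-type (WT) uterus after estradiol (E2). The comparison rests on 6 of the 12 arrays of the study, chosen by sample title: 3 EAAE uteri and 3 WT uteri, each taken 2 h after an injection of 100 ul E2. All mice of the study were ovariectomized adult females of at least 10 weeks on a mixed C57bl6/Jx129 background, rested for 10 to 14 days after surgery so that ovarian hormones could clear. The other 6 mice, 3 EAAE and 3 WT, had received 100 ul of saline in place of the hormone and serve here as the background. The dose of E2, the altered residues and the number of mutant alleles per mouse are not given in the sources used here. Every uterus was homogenized whole and hybridized on an array of its own, so each value stands for 1 mouse and for all cell types of the organ together.

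Estrogen receptor alpha, the product of Esr1, is a nuclear receptor that binds estradiol and acts on genes in more than one way: by contact of its DNA-binding domain with estrogen response elements, by tethering to other factors such as AP-1 and Sp1 that are already on DNA, and by signalling outside the nucleus. In the rodent uterus the hormone is known for a fast first phase, within hours, of immediate early gene transcription, vascular permeability and water uptake, followed by a later phase of epithelial DNA synthesis. The comparison of the genotypes at 2 h asks which transcripts of the first phase part when the receptor that the mouse carries is the EAAE form.

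Levels are given as log2 of the processed spot intensity minus the 75th percentile of that array, so a level of 0 lies at the 75th percentile and a difference of 1 is 2-fold. Over the 12 arrays 63.98% to 74.03% of spots were well above background and the local background was 62.0 to 81.0 intensity units. Arrays of the same E2 group correlated with r of 0.98 to 0.99 over the tested genes, each read by 1 probe. Arrays of different genotype after E2 correlated with r of 0.92 to 0.93. Each of the 3 slides held 1 array of each E2 group. The saline arrays were not balanced in this way, as slide 2 held no WT saline array and slide 3 no EAAE saline array. Gene list counts under saline come from the fit without slide and position as terms. On the slides, position 4 held the 3 EAAE E2 arrays, while WT E2 arrays were at positions 1, 2 and 3, so an effect of position 4 alone and the genotype cannot be told apart. With slide as a block and position as a linear term in the fit, the number of genes called fell from 11187 to 5200; gene list counts from that fit are given where they differ by over 1.5 times.

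The receptor transcript itself was present in both genotypes. Esr1 lay at 2.63, 2.56 and 2.68 in the WT E2 uteri and at 3.19, 3.01 and 2.96 in the EAAE E2 uteri. All 3 EAAE values were above all 3 WT values, a difference of 0.42 ± 0.10 (SE; adjusted p = 0.00316), which did not pass with slide and position in the fit. A second Esr1 probe gave -0.48 (adjusted p = 0.0129), so the direction differed between probes, and neither checks the altered codons. The Esr1 probe used here lies at chr10:5343241-5343300 of mouse build mm7.

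After E2, 11187 of 19304 genes tested differed between the genotypes at an adjusted p under 0.05 (58.0%, limma), 6462 of them higher in EAAE (33.5%) and 4725 lower (24.5%). The 3 arrays of each group did not overlap for 64.4% of genes. A difference of 2-fold or more that was also called was found for 2518 higher (13.0%) and 1734 lower genes (8.98%), and one of 8-fold or more for 216 higher and 249 lower genes. The median over all genes was 0.11. With so many genes called, a count for a gene group after E2 has to be read against 33.5% higher and 24.5% lower. The split depends in part on the scaling: with each array's median in place of its 75th percentile, 5467 genes were higher and 5087 lower. Gene list counts under saline have to be read against 2808 higher and 2899 lower of the 19304 genes. Those after E2 with slide and position in the fit have to be read against 2918 higher and 2282 lower. A lower list count in that fit thus goes with fewer calls over all genes. Where a probe was not well above background on any array of a group, only the fold that the other group exceeds it by at the least is given.

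**Figure D1:**
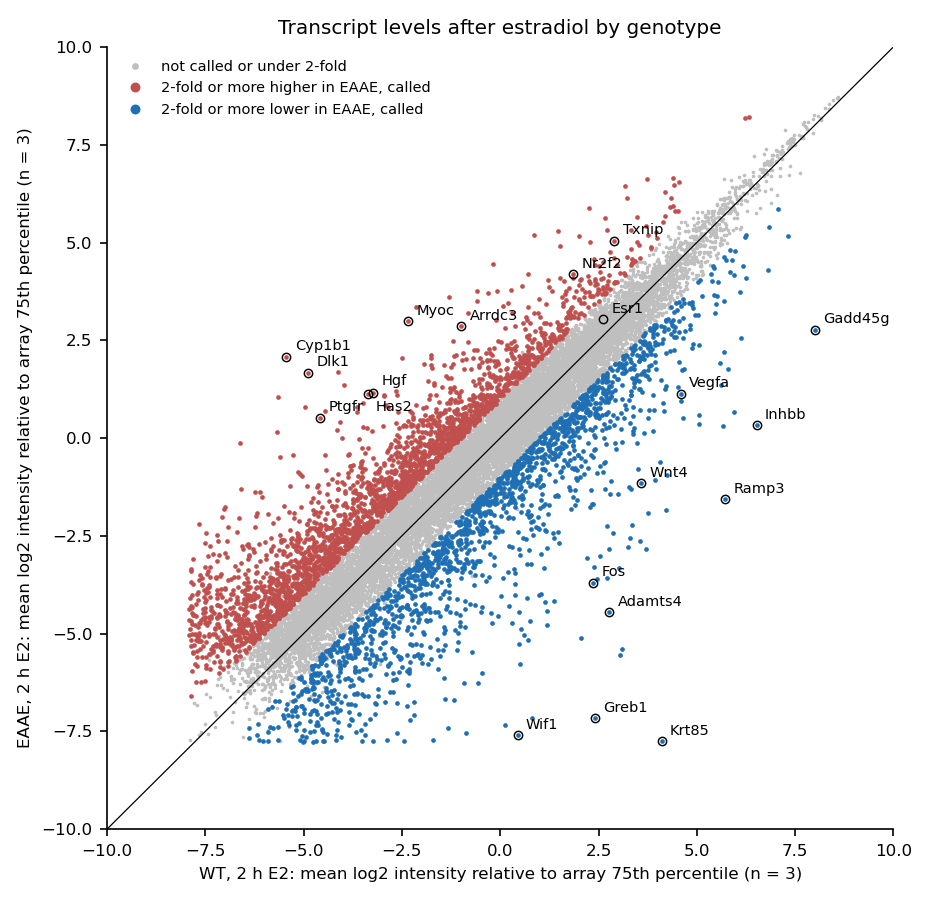
Mean level of each of the 19304 genes in WT (horizontal) and EAAE (vertical) uteri after E2, both in log2 above or below the 75th percentile of the array (n = 3 each). Coloured points differ by 2-fold or more and were called (2518 higher, 1734 lower); Krt85, Greb1, Ramp3, Adamts4 and Fos lie far under the diagonal and Cyp1b1, Dlk1, Ptgfr, Has2 and Hgf far above it.

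Immediate early transcription factors, which cells switch on within minutes to hours of a stimulus without new protein synthesis, were mostly lower in EAAE once hormone was given. Of 35 tested members 29 were lower in EAAE after E2 and 5 were higher, with a median of -2.20 against 0.11 over all genes. Under saline only 1 was lower and 10 were higher (median 0.25). Fos, the AP-1 subunit, lay at 2.24, 2.47 and 2.37 in WT and at -2.88, -4.55 and -3.67 in EAAE, a difference of -6.06 ± 0.36 (adjusted p = 3.59e-07). The WT saline uteri were at -2.75, -2.85 and -3.64 and the EAAE saline uteri at -4.09, -4.23 and -4.00, so the 3 WT E2 uteri stood far above the other 9. Egr1, a zinc finger factor, had 4.69, 4.17 and 4.73 in WT E2 against 1.75, 1.34 and 0.83 in EAAE E2 (-3.22 ± 0.23, adjusted p = 1.13e-06).

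Arc, better known as an activity-regulated gene of neurons, lay at 3.54, 3.09 and 3.12 in WT and at -2.39, -3.18 and -2.82 in EAAE after E2 (-6.04 ± 0.19, adjusted p = 9.50e-09). Nr4a1, an orphan nuclear receptor, lay at 5.80, 5.72 and 5.90 against 1.95, 1.54 and 1.82 (-4.04 ± 0.13). Ier2 differed by -2.89 ± 0.09, though its second probe gave a smaller difference of -0.96. None of these, named for the smallest p of the list, overlapped between the genotypes, which held for 64.4% of all genes. Egr4 was not well above background in any EAAE E2, EAAE saline or WT saline uterus and reached 0.57, -0.42 and 0.21 in WT E2, at least 49.7-fold higher than in EAAE E2. It could be tested only because it was high in WT E2. Myc, the growth-promoting factor, differed least of the named members: 1.87, 1.73 and 2.03 in WT against 1.43, 1.43 and 1.0 in EAAE (-0.59 ± 0.12, adjusted p = 0.00204), while under saline it was higher in EAAE by 0.43. The 5 members that were higher were Klf2, Klf5, Klf6, Klf15 and Cebpd, named after their values were seen. Of these, only Klf5 and Klf15 differed by 2-fold or more; a second Klf2 probe gave -1.10 (adjusted p = 1.26e-05), a second Klf6 probe did not pass (0.12, adjusted p = 0.424), and the count fell to 3 without WT E2 replicate 3 or with array median scaling and to 2 with slide and position in the fit.

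Genes that feed back on growth factor and cytokine signals followed the same order. Of 27 feedback phosphatase, SOCS and growth arrest genes 18 were lower and 4 higher (median -1.88; 17 and 1 with slide and position in the fit); under saline 6 were lower and 2 higher (median 0.00). Gadd45g, a stress and growth arrest gene, was among the brightest genes in WT after E2, at 8.10, 8.0 and 7.89, and lay at 2.66, 2.55 and 3.12 in EAAE (-5.22 ± 0.15, adjusted p = 7.68e-09). Socs1, an inhibitor of cytokine receptor kinases, lay at 4.58, 4.77 and 4.62 against 0.37, 0.42 and 0.76 (-4.14 ± 0.12). Plk2, a stress-responsive kinase, lay at 3.6, 3.32 and 3.6 against -0.69, -1.04 and -0.65 (-4.30 ± 0.13). In all 3 the EAAE E2 values lay within 1 unit of the EAAE saline values. Cdkn1a, the cell cycle inhibitor p21, lay at 1.19, 1.61 and 1.25 in WT and at -2.26, -2.73 and -2.26 in EAAE (-3.77 ± 0.19).

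Promoter sequences from RefSeq (build GRCm38.p6) were searched for the letters of the estrogen response element, the AP-1 site, the GC box bound by Sp1 and the cyclic AMP response element. A window runs from 250 bases before to 50 after a start, and 12115 of 19304 tested genes (62.8%) had one, too few to compare classes of genes, so the search is given for single genes only. On both strands, the full estrogen response element GGTCANNNTGACC stands in 23 of 32851 windows (0.07%). In the 250 bases before the start, the tested genes with a window held the AP-1 letters TGANTCA in 5.99%, the cyclic AMP response element TGACGTCA in 2.72% and the GC box GGGCGG in 59.3%. In the same stretch of the 80 of 104 named genes with a window, none held the full estrogen response element, 3 (3.75%) the AP-1 letters (Pde6h, Il11 and Igf1), 5 (6.25%) the cyclic AMP response element (Ppp1r15a, Birc2, Hlf, Plk2 and Has1) and 46 (57.5%) the GC box. The stretches before the start of the 3 that were lower by 8-fold or more in EAAE after E2 are shown because they hold the letters of sites other than the estrogen response element; capitals mark the AP-1 letters in Il11 and the cyclic AMP response element in Plk2 and Has1. Pde6h, Birc2 and Hlf, which hold such letters too, were higher in EAAE after E2. The stretch before the other Il11 start, chr7:4782858-4783107, holds neither the AP-1 letters nor the cyclic AMP response element. Il11 is shown at chr7:4778142-4778391 on the minus strand, Plk2 at chr13:110394794-110395043 on the plus strand and Has1 at chr17:17855189-17855438 on the minus strand.
Il11: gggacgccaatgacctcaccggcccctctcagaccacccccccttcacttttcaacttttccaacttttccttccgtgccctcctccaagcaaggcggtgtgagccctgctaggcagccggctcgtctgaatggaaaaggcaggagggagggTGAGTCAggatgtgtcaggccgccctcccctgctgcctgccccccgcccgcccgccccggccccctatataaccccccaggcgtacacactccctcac
Plk2: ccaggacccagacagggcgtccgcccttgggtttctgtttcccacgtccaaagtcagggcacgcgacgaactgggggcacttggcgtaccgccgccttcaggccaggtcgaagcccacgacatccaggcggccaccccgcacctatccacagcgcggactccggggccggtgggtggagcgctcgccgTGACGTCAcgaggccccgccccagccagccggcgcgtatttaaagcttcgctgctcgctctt
Has1: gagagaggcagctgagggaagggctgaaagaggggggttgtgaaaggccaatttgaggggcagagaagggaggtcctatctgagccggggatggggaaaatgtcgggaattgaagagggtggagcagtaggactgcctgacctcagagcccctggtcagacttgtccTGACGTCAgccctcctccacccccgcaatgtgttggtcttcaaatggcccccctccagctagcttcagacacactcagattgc

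Of the tested genes with a window, 4 held the full estrogen response element, and Pde10a, a phosphodiesterase of cyclic nucleotides, was the one called; it was picked after its values were seen. Its site begins 18 bases after 1 of the 2 Pde10a starts in the table and is shown, in capitals, with its flanks (chr17:8849994-8850022, plus strand, GRCm38.p6).
Pde10a: gggcggttGGTCAACCTGACCagagggag
Pde10a lay at -1.46, -1.16 and -1.73 in WT and at -3.80, -3.93 and -4.22 in EAAE after E2, without overlap (-2.53 ± 0.16, adjusted p = 5.18e-07). Under saline it lay at -3.60, -3.39 and -3.29 in WT and at -4.13, -3.93 and -3.96 in EAAE (-0.58, adjusted p = 0.0194). A match of letters is a description and does not show binding.

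Genes often cited as direct estrogen receptor targets were split. Of 35 tested, 18 were lower in EAAE after E2, 6 higher and 11 did not pass; the median was -0.96, or -0.78 with the 3 genes that have only a bound set at it. Already under saline 12 were lower and 4 higher (median -0.29). Ramp3, a partner of the calcitonin-like receptor for adrenomedullin, had the smallest p: 5.71, 5.77 and 5.66 in WT against -1.60, -1.65 and -1.46 in EAAE, a difference of -7.28 ± 0.10 (156-fold, adjusted p = 8.41e-11). Under saline the difference was already -2.82, with -2.02, -1.75 and -1.71 in EAAE and 0.86, 1.02 and 1.09 in WT, so the genotypes were apart before hormone and further apart after it. Greb1, an estrogen-induced coregulator, was not well above background in any EAAE uterus and lay at 2.37, 2.58 and 2.30 in WT E2, at least 244-fold higher (adjusted p = 7.44e-08).

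The progesterone receptor Pgr lay at 0.51, 0.62 and 0.56 in WT and at -1.21, -1.17 and -2.26 in EAAE after E2 (-2.11 ± 0.24, adjusted p = 3.42e-05), and its second probe gave -4.67. Under saline the difference of -0.55 did not pass (adjusted p = 0.12). Mad2l1, a spindle checkpoint gene, lay at 2.83, 2.86 and 2.89 against -2.30, -2.34 and -2.65 (-5.29 ± 0.15). Nrip1, a corepressor, lay at 3.96, 3.91 and 3.79 against 0.93, 1.31 and 1.03 (-2.80 ± 0.10), and in it WT saline (1.26 on each array), EAAE saline and EAAE E2 formed a single low level. Lactoferrin (Ltf), a secretory product of the epithelium, overlapped between the groups (0.35 to 1.0 in WT, 0.83 to 1.57 in EAAE; adjusted p = 0.418), as did the cyclin Ccnd1 (1.99 to 2.11 against 2.04 to 2.39; difference 0.09, adjusted p = 0.581).

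Igf1, the growth factor made by the stroma, was lower in EAAE in both treatments. It lay at 2.46, 2.29 and 2.55 in WT E2 and at 1.94, 0.84 and 1.09 in EAAE E2 (-1.15 ± 0.27, adjusted p = 0.00394), and at 1.63, 0.94 and 1.09 in WT saline against 0.36, 0.34 and -0.01 in EAAE saline (-0.99, adjusted p = 0.019). On this probe the difference between the genotype differences, -0.16, did not pass (adjusted p = 0.77), which with 3 mice a group does not show that they are equal. Other Igf1 probes gave larger differences after E2, -1.84 (adjusted p = 2.40e-05) and -1.36 (adjusted p = 0.00188). With slide and position as terms the difference after E2 on the first probe was -0.83 and no longer passed (adjusted p = 0.16).

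**Figure D2:**
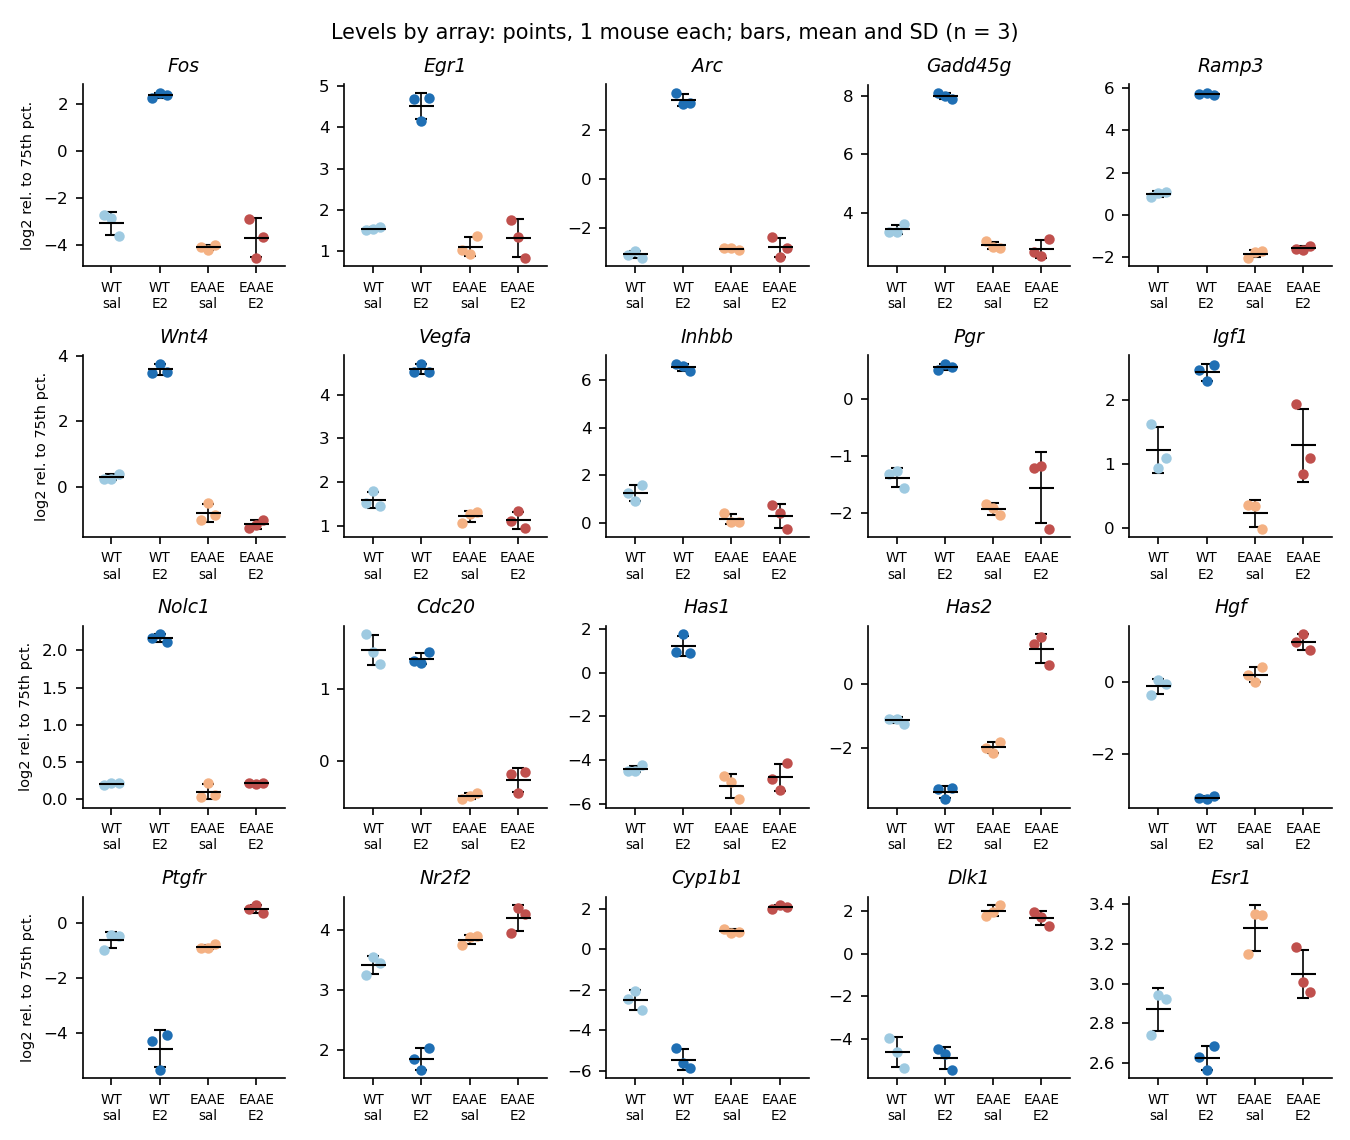
Levels of 20 genes in each of the 12 mice, in log2 above or below the 75th percentile of the array; points are mice, bars the mean and SD of a group (n = 3), and each panel has its own vertical axis. In Fos, Arc, Nolc1 and Has1 only the WT E2 group stands high; in Has2, Hgf, Ptgfr and Nr2f2 the WT E2 group is the lowest; in Dlk1 and Cdc20 the genotypes are apart in both treatments.

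Hair keratins and kallikreins held several of the largest differences. Hair keratins, the hard structural keratins of hair and nail, and tissue kallikreins, secreted serine proteases, were lower in EAAE in 13 of 17 tested members, higher in 2 (Krt35 and Krt36, named after their values were seen) and not called in 2. Of the 6 members well above background on all 12 arrays, 5 were lower and 0 higher. Of the 17, 5 passed the filter on dim probes through WT E2 alone, so they could be tested only because they were high there. Krt85, 1 of these 5, lay at 4.11, 4.23 and 3.97 in WT E2 and was not well above background in any of the other 9 uteri. It was at least 786-fold higher in WT E2 than in EAAE E2. Krt86 lay at 3.03, 3.09 and 3.02 against -5.97, -4.98 and -5.72 (-8.60 ± 0.29), with 1 of 3 EAAE arrays well above background. Krt87 lay at 3.1, 3.09 and 3.09 against -5.74, -5.06 and -5.36 (-8.48 ± 0.17), also well above background on 1 EAAE array.

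Klk1b5 lay at 3.08, 3.21 and 2.79 in WT and at -3.25, -3.0 and -3.76 in EAAE (-6.36 ± 0.29, adjusted p = 7.56e-08). For these 4 genes the saline uteri of both genotypes were low and the genotypes part after hormone. Keratin and kallikrein paralogs are close in sequence, so a probe may read more than 1 of them. A further 10 members of the list were not tested.

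Growth factor ligands and their receptors leaned the other way: 16 of 28 tested EGF, IGF, FGF and HGF family genes were higher in EAAE after E2 and 7 lower (median 0.68; 8 and 2 with slide and position in the fit). Already under saline 11 were higher and 4 lower (median 0.27). Hgf, the ligand of Met that stroma sends to epithelium, lay at -3.26, -3.28 and -3.18 in WT E2 and at 1.14, 1.36 and 0.93 in EAAE E2 (4.38 ± 0.15, 20.8-fold, adjusted p = 1.35e-08). The saline uteri lay between, at -0.35, 0.07 and -0.05 in WT and 0.20, 0.03 and 0.45 in EAAE, so the WT E2 group was the lowest of the 4 and the EAAE E2 group the highest. The 3 other Hgf probes gave smaller differences of 1.24, 2.31 and 2.27. Fgf7, a further stromal ligand, was higher by 2.96 ± 0.18, with 1 of 3 WT E2 arrays well above background. Hbegf, a ligand of the EGF receptor, lay at 3.55, 3.54 and 3.57 in WT against 0.64, 0.76 and 0.75 in EAAE (-2.84 ± 0.09), the reverse of its saline difference of 0.69.

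Vascular genes split, with Vegfa far lower in EAAE E2 than in WT E2, the only group in which it stood high. This gene for the main factor of vessel growth and leak lay at 4.52, 4.71 and 4.53 in WT and at 1.12, 1.33 and 0.95 in EAAE after E2 (-3.45 ± 0.13, 11-fold, adjusted p = 2.21e-08), and its other probes gave -3.10 and -3.76. Both saline groups lay between 1.07 and 1.80. Of the 29 vascular and hypoxia genes, 10 were higher and 9 lower (median 0.13). Ankrd37, a target of hypoxia-inducible factor, lay at -2.56, -2.73 and -2.56 in WT against -0.63, -0.47 and -0.34 in EAAE (2.13 ± 0.11).

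Among Wnt genes, secreted signals between epithelium and stroma with their receptors and inhibitors, 16 of 38 were higher and 11 lower (median 0.22). Wnt4, needed for stromal differentiation, lay at 3.49, 3.77 and 3.5 in WT E2 and at -1.25, -1.18 and -1.01 in EAAE E2 (-4.73 ± 0.14, 26.5-fold, adjusted p = 8.63e-09); the saline difference was -1.08. Wnt9a, a further ligand, differed by -2.99 ± 0.11. Wnt11 was higher, at 2.39, 2.12 and 1.78 in EAAE against -0.97, -1.28 and -1.30 in WT (3.28 ± 0.15), and it was nearly as far apart under saline (2.67). The secreted inhibitor Wif1 was apart under saline as well, at 0.60, 1.01 and 0.64 in WT saline against -4.47, -7.83 and -7.65 in EAAE saline, where 1 of 3 arrays was well above background. After E2 it lay at 0.55, 0.46 and 0.31 in WT and was not well above background on any EAAE array, at least 62.1-fold higher in WT.

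In the TGF-beta, activin and BMP list 12 of 35 genes were lower and 10 higher (median -0.11). Inhbb, the beta-B subunit of inhibin and activin, was a very bright gene in WT E2, at 6.64, 6.58 and 6.34, and lay at 0.77, 0.42 and -0.22 in EAAE E2 (-6.20 ± 0.24, 73.4-fold, adjusted p = 2.82e-08). Inha, the alpha subunit that makes inhibin in place of activin, went the other way: -3.70, -4.19 and -3.99 in WT against -1.33, -0.99 and -1.23 in EAAE (2.78 ± 0.17). Skil, a repressor of SMAD signalling, was at 1.53, 1.79 and 1.81 against -0.53, -0.84 and -0.52 (-2.34 ± 0.11). Gdf15, a distant member of the family released by stressed cells, lay at 3.69, 3.91 and 3.51 against -2.37, -3.34 and -2.84 (-6.55 ± 0.30).

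Hedgehog and Notch genes were balanced, with 13 of 29 higher and 11 lower (median 0.01), and Notch targets went both ways. Hey1 lay at 2.53, 2.76 and 2.59 in WT and at 0.45, 0.45 and 0.15 in EAAE (-2.28 ± 0.10, adjusted p = 5.10e-08). Heyl differed by -2.73 ± 0.16 and Nrarp, a feedback inhibitor of Notch, by -1.69 ± 0.11. For none of the 3, named for the smallest p of their list, did the groups overlap, which held for 64.4% of all genes. Hes1 was lower too, with -1.0, while the related target Hey2 was higher by 1.68 ± 0.16 and the ligand Jag1 by 2.25 ± 0.16; these members were picked after their values were seen.

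Stromal and Mullerian patterning factors, which set the identity of the reproductive tract, were higher in EAAE after E2 in 18 of 34 tested and lower in 6 (median 0.65); under saline 8 were higher and 6 lower (median -0.03). Hoxa10, a homeobox gene of the uterus, lay at 1.60, 1.44 and 1.74 in WT E2 and at 3.44, 3.48 and 3.47 in EAAE E2 (1.87 ± 0.10, adjusted p = 2.15e-07), while under saline the genotypes differed by -0.02 (adjusted p = 0.90). Osr1 lay at -0.61, -0.47 and -0.46 against 1.95, 2.15 and 2.01 (2.55 ± 0.08). Both saline groups of Osr1, a zinc finger factor of the embryonic urogenital tract, lay between, from -0.05 to 0.57. Twist2, a helix-loop-helix repressor, was the exception among the 3 named: 4.50, 4.73 and 4.53 in WT against 0.86, 0.88 and 1.09 in EAAE (-3.65 ± 0.12).

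Nuclear receptors and their partners were near the background, with 11 of 32 higher and 10 lower. Nr2f2, the stromal orphan receptor COUP-TFII, lay at 1.86, 1.67 and 2.04 in WT E2 and at 3.95, 4.37 and 4.27 in EAAE E2 (2.34 ± 0.13, 5.05-fold, adjusted p = 2.74e-07). The thyroid hormone receptor Thra was higher by 1.68 ± 0.14. For both, the 3 WT E2 uteri were the lowest of the 12.

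Enzymes that make and cleave the extracellular matrix parted strongly in both directions. Of 34 hyaluronan and remodelling genes 17 were lower and 11 higher (median -0.45; 11 and 7 with slide and position in the fit). Already under saline 15 were lower and 3 higher (median -0.54). The hyaluronan synthases opposed one another. Has1 lay at 0.95, 1.74 and 0.91 in WT E2 and at -4.85, -5.35 and -4.13 in EAAE E2 (-5.98 ± 0.35, 62.9-fold, adjusted p = 3.35e-07; 2 of 3 EAAE arrays well above background). Has2 lay at -3.26, -3.60 and -3.26 in WT E2 and at 1.25, 1.48 and 0.62 in EAAE E2 (4.49 ± 0.20, 22.5-fold, adjusted p = 5.93e-08), and its second probe gave 4.65. Under saline Has2 was lower in EAAE, at -1.98, -2.14 and -1.79 against -1.08, -1.07 and -1.24 (-0.84, adjusted p = 0.010), so its genotype difference had the opposite sign without and with hormone. Adamts4, a protease of versican and aggrecan, lay at 2.52, 3.20 and 2.59 in WT against -4.39, -4.63 and -4.36 in EAAE (-7.23 ± 0.23, 150-fold).

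Of 32 collagens and matricellular proteins 14 were lower and 7 higher after E2 (median -0.09), and 16 lower and 2 higher under saline (median -0.68); 6 lower remained with slide and position in the fit. Ccn1, an early matricellular gene, lay at 4.16, 4.26 and 3.73 in WT and at -0.42, -0.51 and -0.87 in EAAE (-4.65 ± 0.24, adjusted p = 1.44e-07). Ccn2, its close relative, was higher: 3.75, 3.42 and 3.27 against 5.75, 5.61 and 5.56 (2.16 ± 0.16), and it was higher by 1.59 under saline as well. Col6a3 was lower, with a difference of -2.58 ± 0.16.

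Prostaglandin receptors were higher in EAAE or not called, while the enzymes that make prostaglandins went both ways. Ptgs1 and Ptgs2 were higher, and Ptges, Ptges2, Ptgis and Ptgds lower, named after their values were seen. Of 23 genes of the pathway 12 were higher and 6 lower (median 0.71). Ptgfr, the prostaglandin F receptor, lay at -4.30, -5.36 and -4.06 in WT E2 and at 0.51, 0.67 and 0.39 in EAAE E2 (5.10 ± 0.28, 34.2-fold, adjusted p = 2.38e-07; 2 of 3 WT arrays well above background), with both saline groups between -0.96 and -0.42. Ptger2, a prostaglandin E receptor, lay at -4.48, -4.32 and -4.55 against 0.63, 0.84 and 0.64 (5.15 ± 0.12, 35.5-fold). Ptges, which makes prostaglandin E, lay at 1.66, 2.14 and 1.92 in WT against -1.75, -1.63 and -1.79 in EAAE (-3.63 ± 0.16). Its saline difference was of the other sign, 0.72.

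Of 29 cytokine, chemokine and NF-kB feedback genes 11 were lower and 5 higher (median -0.17; 5 and 2 with slide and position in the fit). Without hormone 8 were lower and 2 higher (median -0.46). Il11, a cytokine of the decidua, lay at -1.18, -0.71 and -1.40 in WT and at -4.23, -3.59 and -4.50 in EAAE (-3.01 ± 0.26, adjusted p = 4.19e-06). Bcl3, a coactivator of NF-kB, differed by -1.94 ± 0.18. Cxcl14, a chemokine of epithelium, was lower by about as much under saline (-2.51) as after E2 (-1.95 ± 0.17).

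The protein-making machinery differed by less per gene but across most of each list. Of 42 ribosome biogenesis genes, the factors that make and process ribosomal RNA in the nucleolus, 35 were lower in EAAE after E2 and 0 higher (median -0.83), against 4 lower and 0 higher under saline (median -0.10); 26 lower remained with slide and position in the fit. The other 7 were not called. Nolc1 lay at 2.17, 2.22 and 2.12 in WT E2 and at 0.23, 0.21 and 0.22 in EAAE E2 (-1.95 ± 0.07, adjusted p = 2.21e-08). The WT saline (0.19 to 0.22) and EAAE saline (0.03 to 0.22) uteri lay at the EAAE E2 level. Bysl differed by -1.94 ± 0.09 and Ltv1 by -1.91 ± 0.08.

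Of 38 translation, tRNA charging and amino acid supply genes 25 were lower and 4 higher (median -0.51; 17 and 1 with slide and position in the fit). Srm and Odc1, of polyamine synthesis, differed by -1.81 ± 0.09 and -1.22 ± 0.08. Slc7a11, the cystine transporter, lay at 0.18, -0.10 and 0.79 in WT against -4.20, -4.87 and -5.12 in EAAE after E2 (-5.02 ± 0.27) and differed by -4.85 under saline, so in this gene the genotypes were apart without hormone. Of 34 heat shock and unfolded protein response genes 24 were lower and 2 higher (median -0.54; 12 and 0 with slide and position in the fit, and 1 higher without, for example, WT E2 replicate 1). Atf4, the transcription factor of the amino acid and stress response, lay at 2.82, 2.96 and 2.88 in WT against 0.34, 0.29 and 0.35 in EAAE (-2.56 ± 0.08, adjusted p = 8.63e-09). Ppp1r15a, which reverses the translational block of that response, differed by -2.07 ± 0.11 and the chaperone partner Dnajb1 by -1.36 ± 0.08.

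DNA replication and mitosis genes were mostly lower in EAAE both after E2 and under saline. Their saline counts come from the fit without slide and position. After E2, 28 of 34 were lower and 1 higher (Mcm6; median -1.36; 16 and 0 with slide and position in the fit), and under saline 29 were lower and 0 higher (median -1.45). Cdc20, an activator of the anaphase complex, lay at 1.40, 1.37 and 1.52 in WT E2 and at -0.19, -0.46 and -0.16 in EAAE E2 (-1.70 ± 0.12, adjusted p = 1.03e-06), and at 1.77, 1.52 and 1.35 against -0.54, -0.50 and -0.45 under saline. Cdc6, which loads the replicative helicase, was not well above background on any EAAE E2 array and was at least 5.09-fold higher in WT. Mad2l1, above, was the contrast within the list, with -1.05 under saline and -5.29 after E2. Among 24 cyclins and inhibitors of the first gap phase 7 were higher and 9 lower. Ccnd2, a D-type cyclin, was higher in EAAE by 1.22 ± 0.11 after E2 and by 1.89 under saline. Rbl2, a relative of the retinoblastoma protein, was higher by 0.68 ± 0.08 after E2, a difference that did not pass with slide and position in the fit.

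Clock genes were lower in 10 of 19 and higher in 3 (median -0.36; 5 and 1 with slide and position in the fit; 5 higher without WT E2 replicate 1 or EAAE E2 replicate 3). Bhlhe40, a clock repressor, lay at 2.53, 2.46 and 2.38 in WT E2 and at -0.73, -0.96 and -1.0 in EAAE E2 (-3.36 ± 0.09, adjusted p = 6.38e-09); its EAAE E2 values were the lowest of the 4 groups. Per2 differed by -1.77 ± 0.14 while its second probe, at -0.80, did not pass (adjusted p = 0.058). Hlf, a clock output factor, was higher by 1.40 ± 0.18.

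In steroid, retinoid and thyroid hormone metabolism 10 of 24 genes were higher and 8 lower (median -0.17). Cyp26a1, which degrades retinoic acid, lay at -1.90, -2.0 and -1.91 in WT E2 and at 2.34, 1.74 and 1.57 in EAAE E2 (3.82 ± 0.16, 14.1-fold, adjusted p = 4.94e-08), with 3.92 under saline. Aldh1a2, which makes retinoic acid, went the other way, at 3.93, 4.18 and 3.82 in WT against 1.76, 1.65 and 1.91 in EAAE (-2.20 ± 0.10). Hsd17b1, which forms estradiol from estrone, was higher by 2.14 ± 0.14, with 1 of 3 WT E2 arrays well above background.

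Of 34 cholesterol, fatty acid and glucose genes 15 were lower and 6 higher (median -0.23; 7 and 3 with slide and position in the fit). Genes of the arrestin-like family parted in both directions, with Arrdc4, picked after its values were seen, lower (-0.79 ± 0.10) and the other two higher. Arrdc3 lay at -0.95, -1.10 and -0.91 in WT against 2.83, 2.91 and 2.85 in EAAE (3.85 ± 0.10, adjusted p = 4.21e-09), and Txnip at 2.95, 2.55 and 3.20 against 5.08, 4.92 and 5.16 (2.15 ± 0.16). The saline uteri of both genotypes had Txnip at 5.07 to 5.64, so the WT E2 uteri were the ones that stood low.

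Apoptosis and survival genes went both ways, with 11 of 24 higher (45.8%) and 8 lower (33.3%), against 33.5% and 24.5% over all genes. Birc2 was higher by 1.14 ± 0.10, and Mcl1 and Bid were lower, with differences of -0.79 ± 0.07 and -1.01 ± 0.12. Of 33 interferon-stimulated and antigen presentation genes 15 were lower and 4 higher after E2 (median -0.40; 4 and 3 with slide and position in the fit) and 22 lower and 0 higher under saline (median -0.85). Usp18, an interferon-induced protease, lay at 1.75, 1.53 and 1.44 in WT against -0.79, -1.16 and -1.05 in EAAE (-2.58 ± 0.19), and under saline it differed by -1.90. Bst2 and Irf1 differed by -1.67 ± 0.13 and -0.83 ± 0.09.

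Among 33 channels, aquaporins and junction genes 16 were higher and 11 lower (median 0.27). Without hormone 13 were higher and 6 lower (median 0.24). The water channel Aqp8 lay at 2.61, 2.23 and 2.30 in WT E2 and at -3.45, -2.86 and -3.56 in EAAE E2 (-5.67 ± 0.23, 50.8-fold, adjusted p = 3.06e-08), while Aqp11, a water channel inside cells, was higher by 2.44 ± 0.13. The gap junction gene Gjb2 lay at 1.85, 1.90 and 1.63 against -1.97, -1.46 and -2.0 (-3.60 ± 0.19). The water channels thus parted in opposite directions.

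**Figure D3:**
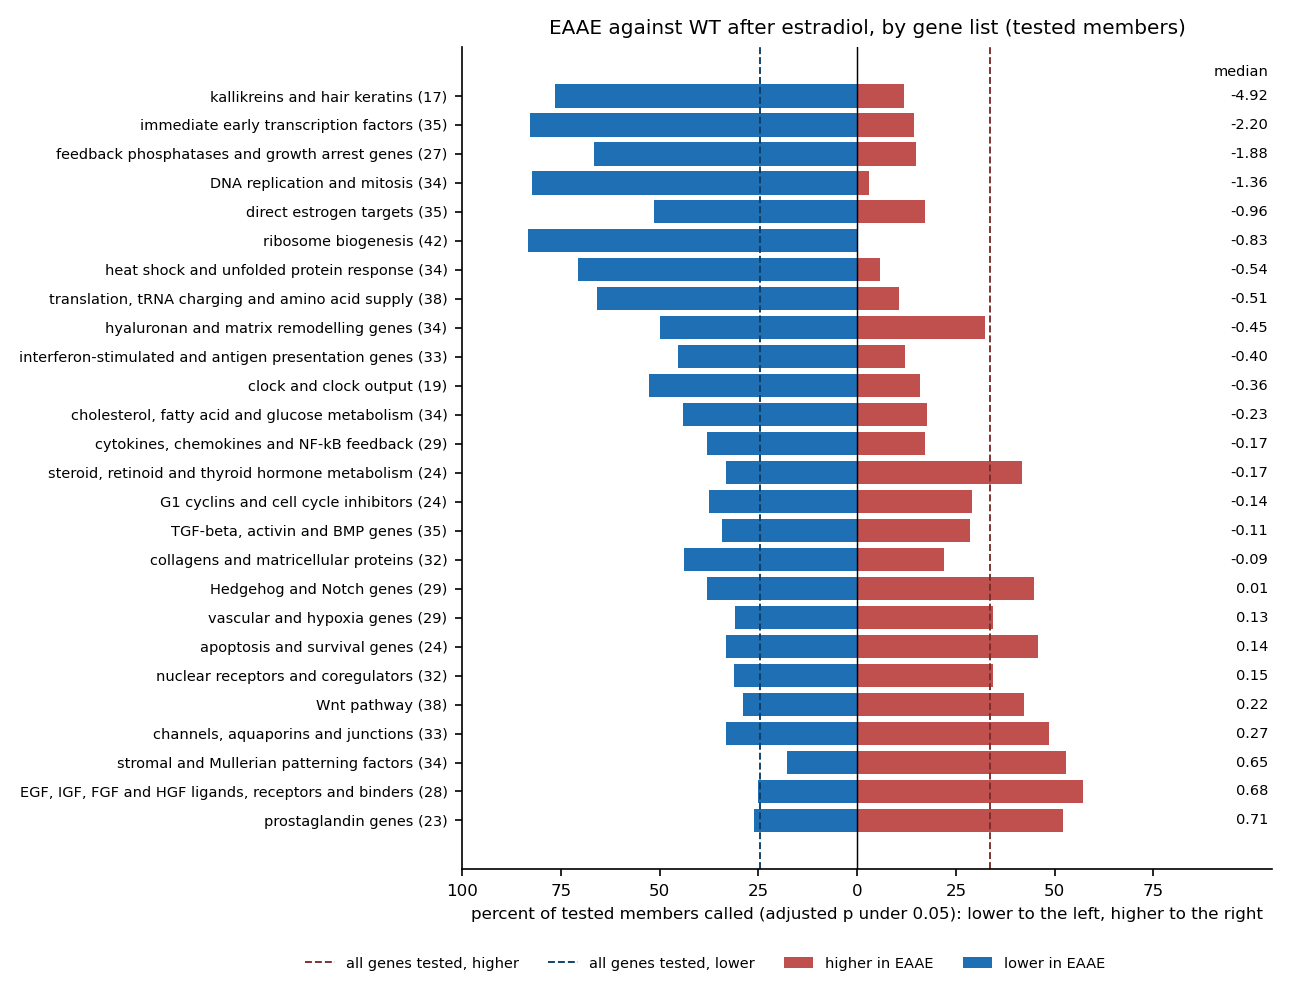
Share of the tested members of each of 26 gene lists that were called higher (right, red) or lower (left, blue) in EAAE after E2, with the number tested in brackets and the median log2 difference at the right; dashed lines give the shares over all 19304 genes, 33.5% higher and 24.5% lower. Immediate early, ribosome biogenesis and DNA replication lists reach furthest to the left (29 of 35, 35 of 42 and 28 of 34 lower).

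The saline arrays, which share no array with the E2 comparison, show which differences were there without hormone. Under saline 5707 genes were called (29.6%), 2808 higher and 2899 lower. With slide as a block 3629 were called, and with slide and position in the fit 419. Among the saline arrays slide 2 held no WT and slide 3 no EAAE mouse, so slide and genotype cannot be fully told apart. The list counts and overlaps that follow are from the fit without these terms. For further functional lists the saline counts were, higher and lower, Wnt 9 and 14, vascular 4 and 8 and TGF-beta 10 and 5. Translation had 3 and 8, heat shock 6 and 4, steroid 3 and 7, first gap phase 3 and 7 and clock 4 and 2. Prostaglandin had 7 and 6, Hedgehog and Notch 6 and 6, cholesterol 4 and 5, apoptosis 4 and 5 and nuclear receptors 5 and 1. Kallikreins and hair keratins had 2 and 2. Of the genes higher in EAAE after E2, 2030 were also higher under saline, 31.4% of the former and 72.3% of the latter. Of those lower after E2, 1534 were also lower under saline (32.5% and 52.9%), and 270 and 216 genes had opposite directions. Of the 216 genes higher by 8-fold or more after E2, 136 were higher under saline too, and of the 249 lower by as much, 149 were lower. The difference between the genotype differences passed for 7200 genes (37.3%), 4291 above 0 and 2909 below, or 3146 and 3090 with array median scaling.

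**Figure D4:**
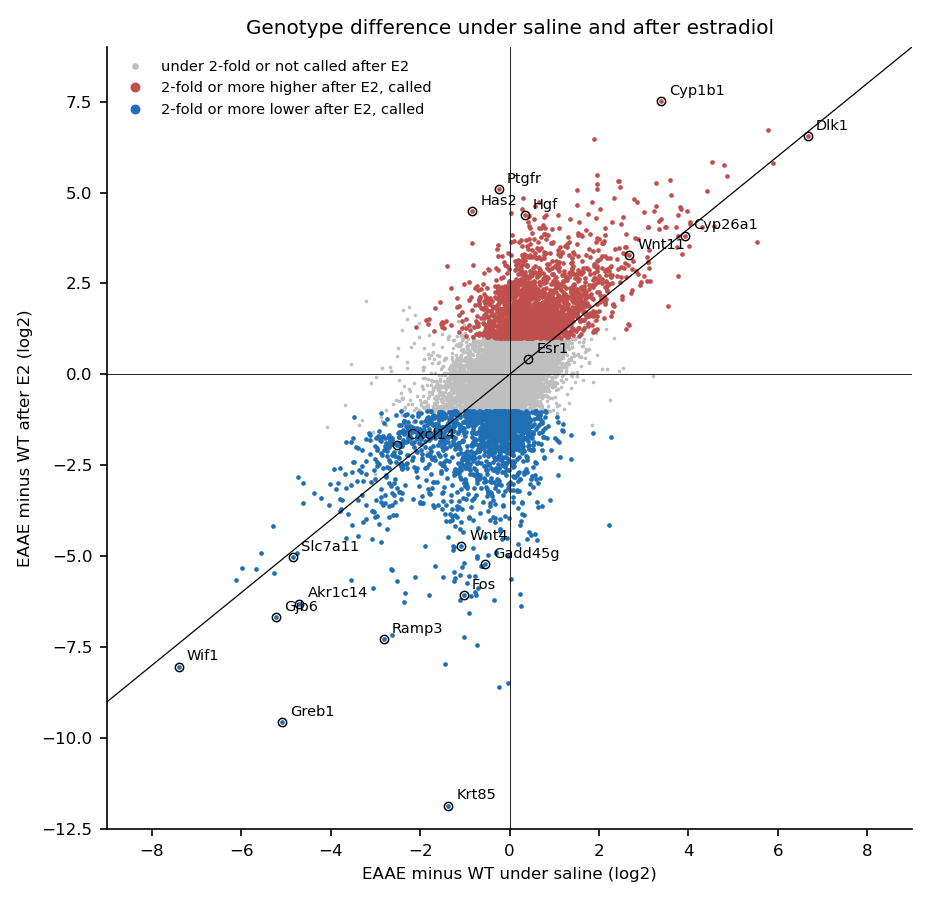
EAAE minus WT under saline (horizontal) against EAAE minus WT after E2 (vertical) for all 19304 genes, both in log2; the diagonal marks equal differences and colours the genes of 2-fold or more called after E2. Dlk1, Cyp26a1, Slc7a11 and Wif1 lie near the diagonal, while Fos, Gadd45g, Krt85, Has2, Hgf and Ptgfr lie far from it.

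Of 14 genes described here from the furthest higher in EAAE after E2, 13 were also higher under saline, all but Ptgfr. Cyp1b1, which hydroxylates estradiol, led them: -4.86, -5.59 and -5.86 in WT E2 against 1.97, 2.17 and 2.11 in EAAE E2 (7.52 ± 0.27, 184-fold, adjusted p = 1.86e-08; 1 of 3 WT arrays well above background), and 3.38 under saline. Dlk1, an imprinted ligand-like protein of the Notch family, lay at -4.49, -4.69 and -5.46 against 1.97, 1.73 and 1.32 (6.55 ± 0.35), with 6.67 under saline. These genes thus parted the genotypes in both treatments, Dlk1 and Pde6h to like extent and Cyp1b1 further after hormone.

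The other genes of that set ranged from 5.84 down. Gldc, the glycine decarboxylase, differed by 5.84 ± 0.27, with 1 of 3 WT E2 arrays well above background, and Pde6h, a phosphodiesterase subunit known from cone photoreceptors, by 5.80 ± 0.30. Cwh43 and Ptchd4, each well above background on 2 of 3 WT E2 arrays, differed by 5.77 ± 0.23 and 5.11 ± 0.29. Myoc, a secreted glycoprotein known from the eye, differed by 5.34 ± 0.17 and Acod1, which makes itaconate in macrophages, by 5.33 ± 0.37. For Pon1, Slco4c1, Esrrb and Sox2ot the WT E2 level was not well above background and the EAAE level was at least 14.5-fold, 12.2-fold, 10.7-fold and 9.11-fold higher. Pon1, a serum esterase, varied widely within EAAE, at 0.53, -2.92 and -2.87, and did not pass with slide and position in the fit (adjusted p = 0.091).

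Of the 15 genes furthest lower, 11 were also lower under saline and Krt86, Krt87, Egr4 and Klk1b5 were not called; Krt85 counts among the 11, with neither saline group well above background. The oxytocin receptor Oxtr lay at 0.47, 0.52 and 0.48 in WT E2 and at -4.83, -6.50 and -5.99 in EAAE E2 (-6.26 ± 0.44, adjusted p = 1.06e-06; 1 of 3 EAAE arrays well above background). Akr1c14, a hydroxysteroid dehydrogenase, lay at 2.73, 2.55 and 2.91 against -3.49, -3.54 and -3.70 (-6.30 ± 0.18), with -4.70 under saline. Ppp2r2c, a phosphatase subunit, differed by -7.17 ± 0.55, with 2 of 3 EAAE arrays well above background. The gap junction gene Gjb6 and Csrnp3 were at least 24.8-fold and 79.9-fold higher in WT E2 than in EAAE E2, though a second Csrnp3 probe gave a difference of only -2.22.

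In RNA from a whole organ, fewer cells of a type and less RNA per cell cannot be told apart, so the marker genes of 14 cell types were read beside these results. Markers of the labelled tissue were bright, namely smooth muscle (summed log2 level 9.60 to 9.80 in WT E2, 8.91 to 9.62 in EAAE E2), stroma (8.65 to 8.84 and 8.81 to 9.12) and uterine epithelium (7.23 to 7.32 and 7.90 to 8.15). Epithelial markers did not overlap between the genotypes: 11 of 22 were higher in EAAE and 5 lower after E2 (8 and 2 with slide and position in the fit), and 14 and 4 under saline. Krt18, a keratin of simple epithelium, was higher by 0.94 ± 0.11, whereas Foxa2 and Wnt7a, of glands and lumen, differed by -1.30 ± 0.29 and -1.94 ± 0.21. These shifts were present under saline and their part in the results above was not tested.

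Adipocyte markers moved furthest with genotype after E2. Of 18 tested 14 were higher in EAAE and 0 lower (median 3.20, or 2.43 with 2 genes at their bound; 5 higher with slide and position in the fit). Under saline 2 were higher and 0 lower (median 0.47). The difference between the genotype differences passed for only 2 of the 18, both above 0. Fabp4, the fatty acid binding protein of fat cells, lay at 0.39, 2.88 and -0.66 in WT E2 and at 6.56, 4.54 and 4.47 in EAAE E2 (4.32 ± 1.05, adjusted p = 0.00491), and at 6.10, 3.28 and 3.80 in WT saline. Adipoq lay at -1.98, 0.90 and -2.54 against 4.07, 1.86 and 1.53 (3.70 ± 1.14, adjusted p = 0.0172). The summed level was 4.99 to 5.94 in WT E2 and 6.95 to 8.66 in EAAE E2, whereas the saline groups overlapped (5.96 to 8.12 and 6.57 to 8.28). None of the 18 was lower, and the part of fat tissue around the uterus in genes higher in EAAE was not tested.

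Nerve and Schwann cell markers were also apart (3.38 to 3.49 in WT, 4.21 to 4.58 in EAAE; 6 of 12 higher, 3 lower; 5 and 0 with slide and position in the fit; 1 lower without WT E2 replicate 1 or EAAE E2 replicate 3). Endothelial sums did not overlap (6.17 to 6.25 against 6.85 to 6.94), although 5 of 18 endothelial genes were higher and 2 lower. The 5 fell to 2 with slide and position in the fit and to 3 without any 1 of WT saline replicate 3, WT E2 replicates 1 and 3 and EAAE E2 replicate 1, and the 2 lower ranged from 1 to 3 as an array was left out. Macrophage sums overlapped (6.48 to 6.82 against 5.60 to 7.42; 2 of 22 higher, 2 lower), and their counts rested on single EAAE E2 arrays, with 6 higher without replicate 2 and 8 lower without replicate 1. With slide and position in the fit 2 macrophage markers were higher and 0 lower. Under saline 12 of 22 macrophage markers were lower in EAAE. Skeletal muscle markers were higher in 8 of 12 and lower in 2 (3 and 1 with slide and position in the fit), with sums that overlapped (3.08 to 3.34 against 2.77 to 4.02). Smooth muscle markers were lower in 9 of 18 and higher in 3 (3 and 2 with slide and position in the fit), among them Acta2 at -0.63 ± 0.18, and their sums overlapped. The remaining lists were called as follows: lymphocyte 1 higher and 1 lower of 21, granulocyte and mast cell 1 and 3 of 13, erythroid 0 and 0 of 4, ovary 2 and 1 of 6, oviduct and ciliated cell 8 and 2 of 13, mesothelium 1 and 0 of 9, and stroma 9 and 4 of 20. With slide and position in the fit these became, higher and lower, lymphocyte 1 and 0, granulocyte 0 and 1, erythroid 0 and 0, ovary 1 and 1, oviduct 4 and 1, mesothelium 0 and 0 and stroma 3 and 2. Leaving out 1 array changed none of these counts by more than 1. The summed oviduct markers were lower in EAAE E2 without overlap (3.19 to 3.72 in WT, 3.04 to 3.14 in EAAE), the reverse of their 8 higher calls, with Foxj1 and Tppp3 the 2 lower members. The ovary sums were higher without overlap (0.27 to 0.54 against 0.70 to 0.89).

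**Figure D5:**
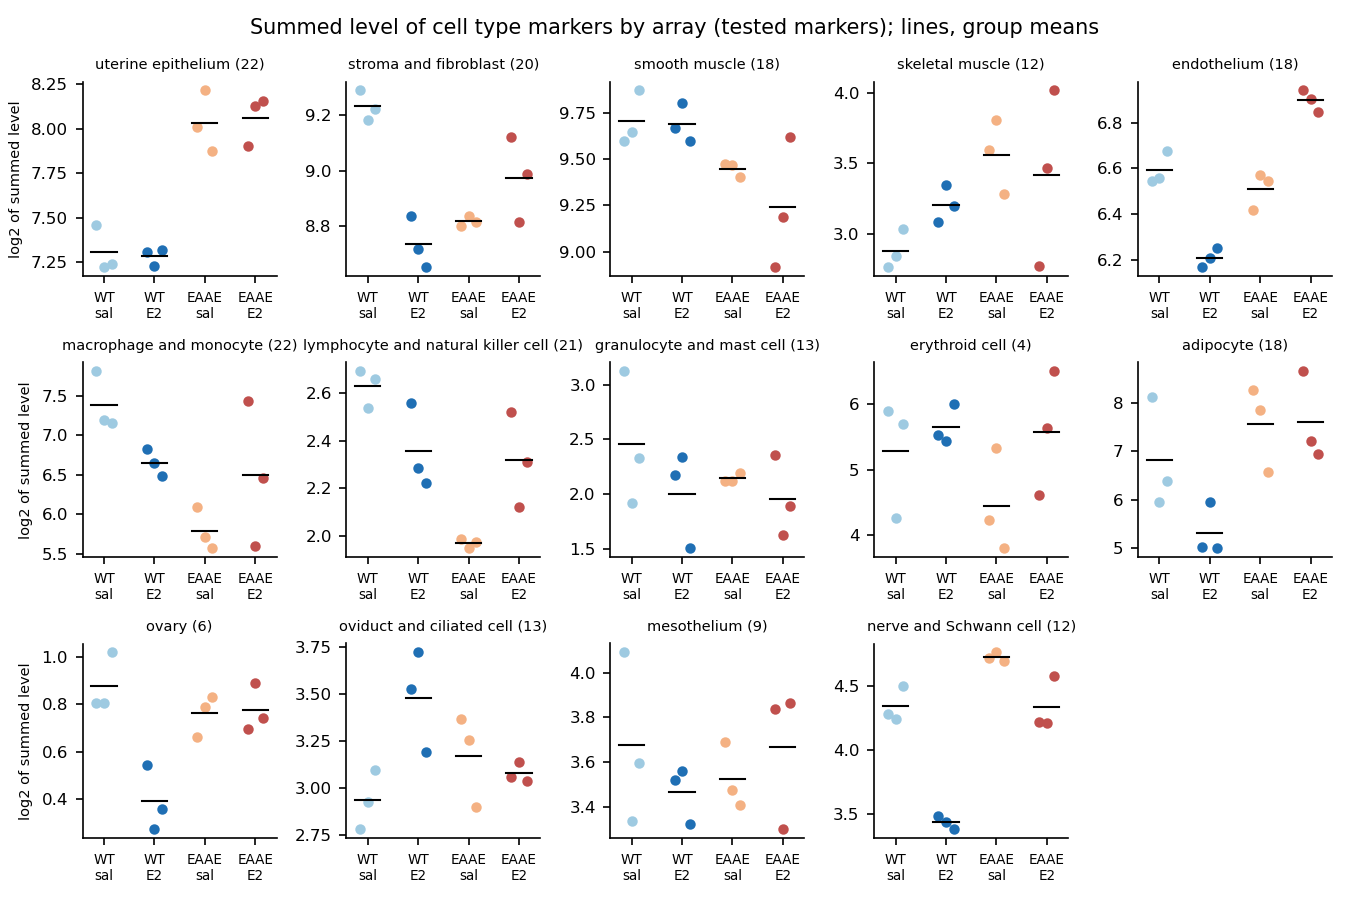
Summed level of the tested marker genes of 14 cell types in each of the 12 mice (log2 of the sum of scaled intensities; number of markers in brackets; lines are group means; each panel has its own axis). Adipocyte, epithelial, endothelial, nerve, ovary and oviduct sums do not overlap between WT E2 and EAAE E2; macrophage, skeletal muscle and smooth muscle sums do.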

How the data were processed

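Each of the 12 uteri was hybridized in Cy3, from 500 ng of total RNA, to its own 1-colour Agilent array. The authors deposited processed intensity per spot (Agilent Feature Extraction 9.5.3.1, per the file headers; 9.5 per the submitters' processing notes), with background subtraction and detrending; probe positions are in mm7, per the file headers. The deposited value table held the same intensity values for all spots.

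Here log2 of the processed intensity minus each array's 75th percentile was taken, without control and outlier spots, and replicate spots gave 1 mean per probe. Testing took the 29017 of 41174 probes that all 3 arrays of some group measured well above background. A gene was read by its brightest tested probe, giving 19304 genes. limma 3.58.1 (R 4.3.3) was fitted over all 12 arrays (lmFit, eBayes, Benjamini-Hochberg over all genes, threshold 0.05), and checked on simulated data. Bounds ("at least N-fold") divide the brighter group's mean by a floor, which on each array is the lowest signal well above background, or the probe's own where higher. Genes were named by rule: 14 preset genes and Esr1, the 15 called genes furthest in each direction, and the 3 smallest p-values of each of 26 lists; a few such genes are not reported here. Members and lists were chosen with earlier results of these data known. Symbols came from RefSeq tables (GRCm38.p6) by the systematic accession for 22951 probes, by symbol for 6582 and by synonym for 3077; 8155 kept the file's name. The fit did not pair mice by replicate number. The number of arrays, 3 per group, limits precision. Alternatives covered scaling, background, filter, probe choice, slide, position, replicate block and each array left out.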

Additional observations from a re-analysis of the deposited data

Results flagged for a closer look

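For 88 of the genes named above the genotype difference itself differed between the treatments: EAAE minus WT after E2, less EAAE minus WT under saline, passed an adjusted p of 0.05 in limma's interaction contrast over all 12 arrays. The values below are that difference of differences in log2; a negative value means that EAAE lay lower against WT after E2 than under saline. For genes not well above background in a group they are fitted values and no bound. The same contrast passed for 7200 of 19304 genes (37.3%).

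Of the immediate early genes, Arc had -6.27, Fos -5.03, Nr4a1 -4.29, Ier2 -3.13, Egr1 -2.79 and Myc -1.02, and Egr4 had -6.73. In the feedback and growth arrest genes it was -4.67 for Gadd45g, -4.37 for Socs1, -4.08 for Plk2 and -3.28 for Cdkn1a. Hair keratins had the most negative values of the genes named, -10.49 for Krt85, -8.45 for Krt87 and -8.37 for Krt86, and the kallikrein Klk1b5 had -6.61. Further genes with negative values were Csrnp3 at -6.52, Adamts4 at -6.20, Gdf15 at -5.64, Ppp2r2c at -4.53, Oxtr at -3.90, Akr1c14 at -1.61 and Gjb6 at -1.45.

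Among known estrogen targets Greb1 had -4.49, Ramp3 -4.47, Mad2l1 -4.23, Nrip1 -2.86 and Pgr -1.56, and Pde10a, picked after its values were seen, had -1.95. In signalling families Inhbb had -5.10, Wnt4 -3.65, Hbegf -3.53, Vegfa -3.08, Skil -2.13, Hey1 -2.12, Heyl -1.99, Wnt9a -1.99 and Nrarp -1.84. In the same families Hgf had 4.04, Inha 2.10, Ankrd37 2.08, Fgf7 1.85 and Wnt11 0.61. Patterning factors and receptors gave -2.79 for Twist2, 2.05 for Osr1, 1.92 for Nr2f2, 1.89 for Hoxa10 and 1.38 for Thra.

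In the matrix and prostaglandin genes the values were -5.21 for Has1 and 5.33 for Has2, -4.85 for Ccn1, -1.59 for Col6a3, -4.35 for Ptges, 5.34 for Ptgfr and 2.68 for Ptger2. Il11 had -3.46 and Bcl3 -1.48. For protein synthesis and stress they were -1.85 for Nolc1, -1.62 for Bysl, -1.26 for Ltv1, -1.47 for Srm, -0.83 for Odc1, -2.60 for Ppp1r15a, -2.32 for Atf4 and -1.39 for Dnajb1. Cell cycle and survival genes gave -1.05 for Cdc6, -0.66 for Ccnd2, 0.36 for Rbl2, 0.71 for Birc2, -0.85 for Mcl1 and -0.66 for Bid.

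Clock genes had -2.96 for Bhlhe40, -2.09 for Per2 and 0.85 for Hlf. Metabolic genes had 2.05 for Arrdc3, 1.78 for Txnip, -1.40 for Aldh1a2 and 1.88 for Hsd17b1. Irf1 had -0.48, and the channels and junctions had -4.43 for Aqp8, -1.90 for Gjb2 and 1.86 for Aqp11. Of the genes furthest higher in EAAE, Cyp1b1 had 4.14, Slco4c1 3.55, Ptchd4 3.16, Acod1 2.91, Myoc 1.76, Gldc 1.30 and Cwh43 0.96. It did not pass for the other 17 named genes, Esr1, Igf1, Ltf, Ccnd1, Dlk1, Pde6h, Esrrb, Pon1, Sox2ot, Wif1, Ccn2, Cxcl14, Slc7a11, Cdc20, Cyp26a1, Usp18 and Bst2.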

How the results depend on the processing

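The number of genes called was recomputed under 23 alternatives. Counts moved by over 1.5 times with slide as a block and position as a linear term (5200 after E2 and 419 under saline) and, for saline, with slide as a block (3629); the cause was not tested. Leaving out each array in turn gave 9757 to 11222 genes after E2, 4171 to 6071 under saline and 5721 to 7106 for the difference of differences. With the replicate number as a block, 11059, 5446 and 7057 genes were called. Deviations from the group means of same-numbered E2 mice correlated with r of -0.12, -0.24 and 0.19. For E2 mice that shared a slide, r was -0.01, 0.35 and 0.09. Same-numbered mice thus showed no common shift, but with 3 mice a group this cannot exclude a pairing. Of 102 named genes called, 98 kept the call under every alternative that gave them a value; Esr1 (0.34), Igf1 (-0.83), Pon1 (6.17) and Rbl2 (0.58) lost it with position in the fit. Esr1 was -0.0295 as the mean of all tested probes, and Ccnd1, not called, ranged from -0.0231 (without EAAE E2 replicate 2) to 0.154 when an array was left out. With only probes well above background on all 12 arrays, 5 kallikrein and hair keratin genes could be called lower in place of 13. With position in the fit the members higher and lower were 6 and 6 of the nuclear receptors, 5 and 8 vascular, 6 and 8 TGF-beta, 6 and 9 Hedgehog and Notch, 3 and 6 collagen, 10 and 3 prostaglandin, 4 and 7 first gap phase, 6 and 8 steroid, 6 and 4 apoptosis and 11 and 5 channel genes.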
